A study of Mus musculus with 22 samples.

Results

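The secreted and membrane-bound metalloproteinases of the Adamts and Mmp families and their Timp inhibitors were followed through 22 lists of chromatin immunoprecipitation sequencing (ChIP-seq) regions from MC3T3-E1, a pre-osteoblastic cell line of the mouse whose matrix mineralizes in osteogenic culture. The group holds 36 of the 22208 protein-coding genes annotated on mouse chromosomes 1 to 19 and X: 19 Adamts genes, 13 Mmp genes and 4 Timp genes. They were chosen by name, with earlier results of these data known. Other Mmp genes were not counted in the group. For each gene, transcription factor sites were counted if centred no more than 100 kb from an annotated start, and a histone mark was counted when a region covered a start.

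Differentiated cells had been cultured for 15 days with ascorbic acid and glycerol-2-phosphate, and undifferentiated cells in growth medium alone, and both were used between passages 5 and 12. Each state was exposed for 3 h to calcitriol, the active hormone made from vitamin D, at 100 nM, or to ethanol vehicle. Calcitriol lists of both states were available for the vitamin D receptor (VDR), the retinoid X receptor (RXR), C/EBPβ, RUNX2 and the histone marks H4K5ac, H3K9ac, H3K4me1, H3K4me3 and H3K36me3, and vehicle lists of both states for VDR and RXR. To clear the mineral, differentiated cultures alone went through a homogenizer and a sucrose spin, so state and preparation cannot be told apart. Each group was represented by 1 list with no replicate of its own, so the differences below have no replicate error and no test.

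Adamts and Mmp proteins are zinc proteases that cut collagens, proteoglycans, fibronectin and other matrix proteins, and Timp proteins block them by occupying the active site. In bone, they process newly laid collagen and remodel the matrix around osteoblasts and osteocytes. With its ligand, VDR pairs with RXR on direct repeats of a hexamer spaced by 3 bp (DR3), RUNX2 is the master transcription factor of osteoblasts, and C/EBPβ is a leucine-zipper factor active in early osteoblast and adipocyte development. Acetylated H4K5 and H3K9 and trimethylated H3K4 mark active starts, H3K4me1 marks enhancers and the flanks of starts, and H3K36me3 marks transcribed gene bodies.

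The VDR lists held 871 sites (differentiated, calcitriol), 274 (differentiated, vehicle), 7000 (undifferentiated, calcitriol) and 937 sites (undifferentiated, vehicle). The other factor lists held 4815 to 17950 sites and the mark lists 6983 to 53858 regions. The lists carry no read counts, so their depth is unknown, and deeper sequencing can lengthen a list as well as more binding can. The starts of most osteoblast-lineage markers examined carried active marks. H3K4me3 covered a start of 8 of 12 in differentiated cells (66.7%, against 42.4% of all genes) and of 8 in undifferentiated cells (66.7%, against 35.1%). H3K9ac covered a start of 10 in differentiated cells (83.3%, against 51.5%) and 9 in undifferentiated cells (75.0%, against 49.7%). Neither mark covered a start of any of the blood, muscle, neuron or endothelial markers examined, but other marks covered starts of some. H4K5ac, H3K4me1 and H3K36me3 covered a start of the blood marker Cd68 in both states. In undifferentiated cells H4K5ac and H3K4me1 covered a start of the blood marker Csf1r, and H3K4me1 covered one of the endothelial marker Pecam1 in both states. Bglap, the osteocalcin gene, carried none of the 5 marks over a start in either state.

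Sequences are shown for VDR sites near these genes that hold a DR3 match, because this element is where the hormone receptor is known to bind. The first 3 were under VDR sites in both states, and the other 5 were under VDR sites of undifferentiated cells alone. Those 5 lay near members among the 10 with the most VDR sites in undifferentiated cells, some of which had only 2. Each line reads 5′ to 3′ on the strand of the element, with the hexamers of the repeat in capitals and mm9 coordinates.
Mmp28, in an intron (chr11:83261658-83261698, plus strand): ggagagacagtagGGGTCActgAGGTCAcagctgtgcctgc
Adamts4, at the Ppox promoter (chr1:173211231-173211271, plus strand): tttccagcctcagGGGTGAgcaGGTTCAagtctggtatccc
Adamts12, in an intron (chr15:11048361-11048401, minus strand): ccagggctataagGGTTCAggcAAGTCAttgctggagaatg
Adamts2, in an intron (chr11:50456169-50456209, minus strand): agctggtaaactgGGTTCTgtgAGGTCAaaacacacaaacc
Adamts9, in an intron (chr6:92856112-92856152, minus strand): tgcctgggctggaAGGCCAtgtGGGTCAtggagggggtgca
Adamts4, at the Usp21 promoter (chr1:173217603-173217643, minus strand): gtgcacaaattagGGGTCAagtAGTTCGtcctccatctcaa
Mmp24, in an intron of Uqcc (chr2:155717210-155717250, minus strand): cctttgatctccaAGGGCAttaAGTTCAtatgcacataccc
Adamts13, intergenic near Tmem8c (chr2:26931040-26931080, minus strand): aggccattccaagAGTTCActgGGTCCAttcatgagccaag

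The Mmp28 element matched the DR3 consensus with 0 mismatches, and each of the others with 1. In differentiated cells, 3 of the 7 VDR sites near the 36 genes held a DR3 match with at most 1 mismatch in the 200 bp around their centre (42.9%; exact Clopper-Pearson 95% interval 9.90 to 81.6), against 24.0% of the whole list. In undifferentiated cells, 9 of 40 sites held a match (22.5%; interval 10.8 to 38.5), against 14.8% of the whole list and 1.18% of windows 2 kb to either side of that list's sites. Both intervals hold the share of their whole list, and they cover counting error only. Under the Mmp28 element lay the only exact match among the 40 sites.

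VDR was found near fewer of these genes in differentiated than in undifferentiated cells. With calcitriol, 6 of the 36 genes (16.7%) had a VDR site in differentiated cells, against 12.1% of all protein-coding genes, and 18 (50.0%) had a site in undifferentiated cells, against 40.9% of all genes. Under vehicle, 0 genes had a VDR site in differentiated cells, against 6.15% of all genes, and 4 had a site in undifferentiated cells (11.1%), against 15.7% of all genes. At this distance both vehicle shares stood below those of all genes and both calcitriol shares above, by few genes. Within 50 kb, 4 genes again had a VDR site under vehicle in undifferentiated cells (11.1%), against 9.93% of all genes. The order in that list thus depended on the distance. The calcitriol sites summed to 7 in differentiated and 40 in undifferentiated cells. No gene of the group had more VDR sites in differentiated cells with calcitriol, Mmp28 had 1 in each state, and 17 had fewer (47.2%, against 36.1% of all genes). Of the genes with VDR in undifferentiated cells, 6 of 18 also had VDR in differentiated cells (33.3%), against 29.1% of all such genes.

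**Figure D1:**
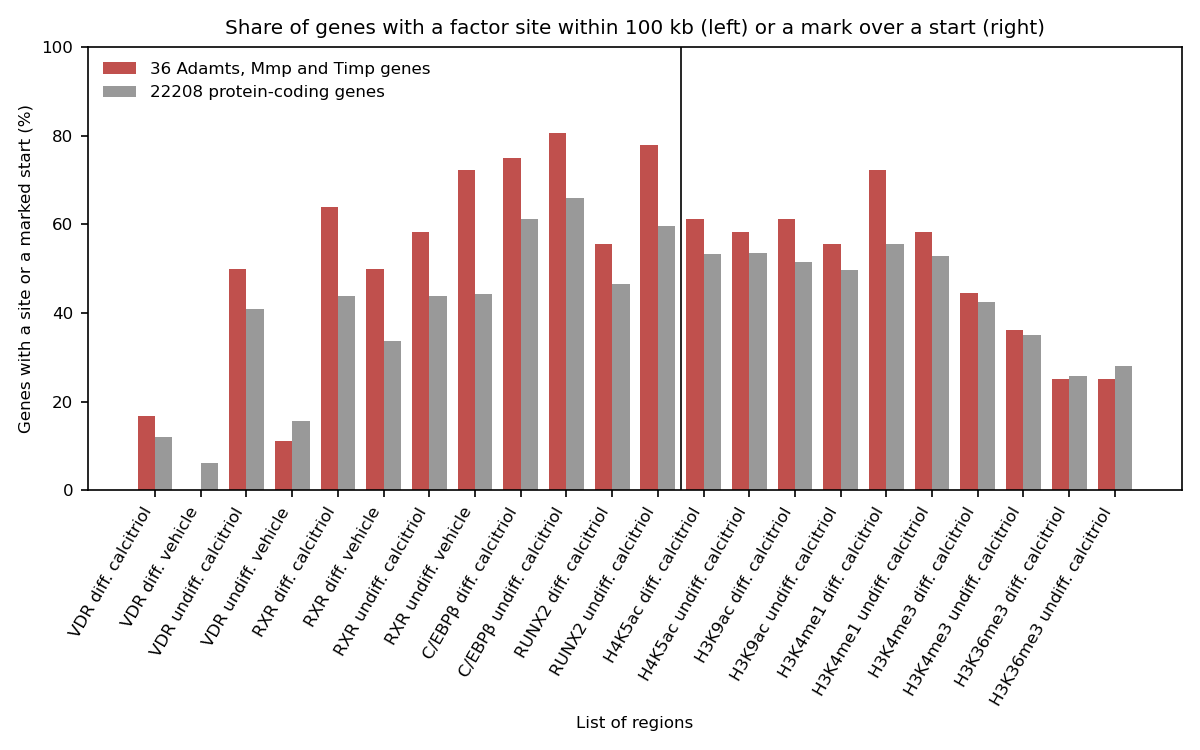
Percentage of genes with a site within 100 kb of a start (4 factors, left of the line) or with a region over a start (5 marks, right of the line), for the 36 Adamts, Mmp and Timp genes (red) and the 22208 protein-coding genes (grey) in each of the 22 lists. The red bar stands below the grey one in both VDR vehicle lists and both H3K36me3 lists, and above it in all others.

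All 7 VDR sites of differentiated cells overlapped VDR sites of undifferentiated cells. They lay near Adamts6 (2 sites) and near Adamts4, Adamts12, Adamts13, Mmp28 and Timp2 (1 each). In the whole list, 90.8% of the differentiated sites overlapped undifferentiated ones. In differentiated cells RXR was called with calcitriol at 6 of the 7 (85.7%; interval 42.1 to 99.6), against 66.0% of the whole list, RUNX2 at 5 (71.4%; interval 29.0 to 96.3), against 33.5%, and C/EBPβ at 2 (28.6%; interval 3.67 to 71.0), against 30.7%. The intervals over 7 sites are wide, and those for RXR, RUNX2 and C/EBPβ all hold the share of the whole list. Read from the undifferentiated side, 7 of 40 sites were called again in differentiated cells (17.5%; interval 7.34 to 32.8), against 11.3% of the whole list, and 33 were not.

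In undifferentiated cells the 40 VDR sites coincided with the other factors about as often as the whole list did. RXR was called with calcitriol at 23 of them (57.5%, against 60.0% of the whole list), C/EBPβ at 19 (47.5%, against 44.1%) and RUNX2 at 20 (50.0%, against 54.0%). H4K5ac covered 39 (97.5%, against 97.5%) and H3K4me1 all 40 (100%, against 96.2%), close to the shares of the whole list. H3K4me3 covered 15 (37.5%; interval 22.7 to 54.2), against 19.9% of the whole list, and 11 sites lay within 1 kb of a start of some gene (27.5%), against 15.3% of the list. The 15 include all 5 sites near Adamts4 and all 3 near Mmp9, so they are not independent and the interval is too narrow for them.

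Most of the VDR sites lay closer to another gene than to the protease or inhibitor gene they were counted for. The member had the nearest start for 16 of the 40 sites (40.0%), 10 sites lay inside the member, and 10 of the 11 promoter sites were at promoters of other genes. When each site was counted only for its nearest gene, 3 members had VDR in differentiated cells with calcitriol (8.33%, against 3.06% of all genes). In undifferentiated cells 9 did (25.0%, against 14.7%).

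**Figure D2:**
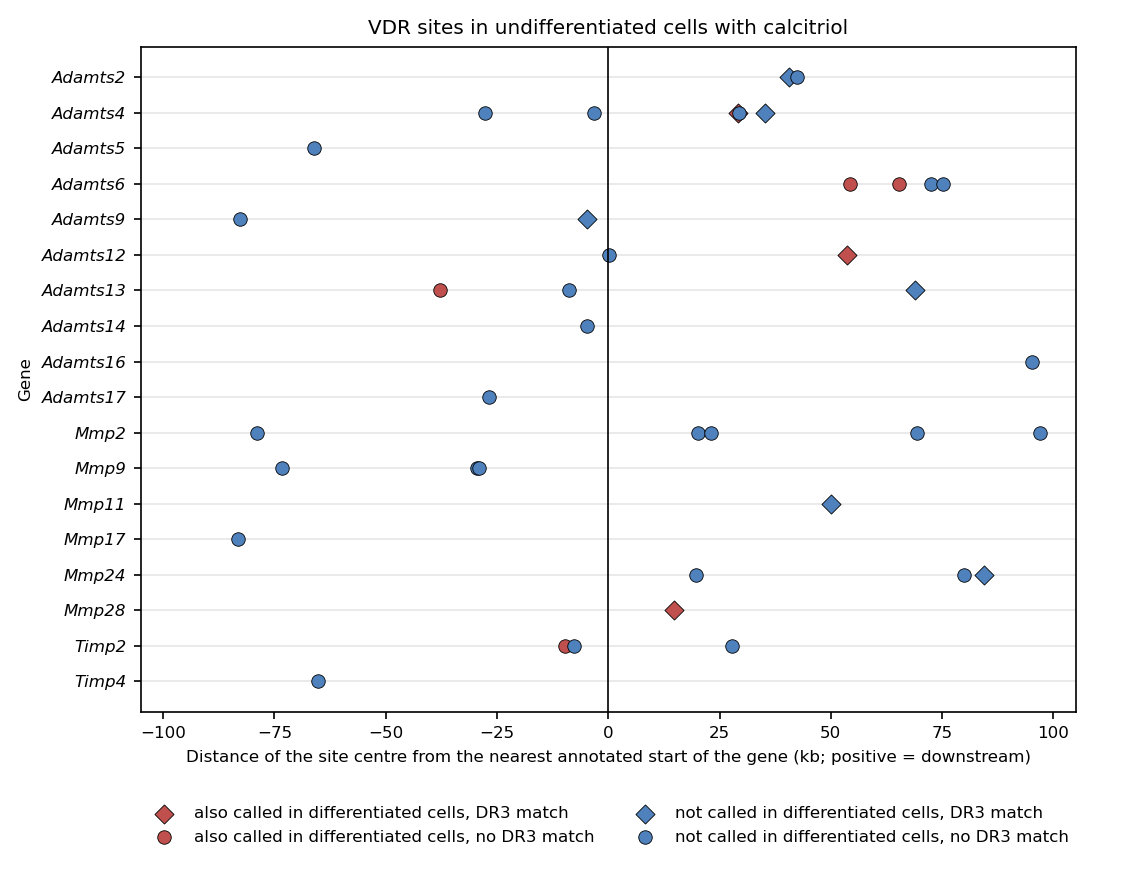
Position of each of the 40 VDR sites of undifferentiated, calcitriol-treated cells relative to the nearest start of the gene (x axis, kb; 18 genes on the y axis). Red symbols are the 7 sites also called in differentiated cells, blue symbols the 33 that were not, and diamonds the 9 sites with a DR3 match; of all symbols, 1 at Adamts12 lies within 1 kb of the gene's own start.

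Adamts4, an aggrecan-cleaving protease, had 1 VDR site with calcitriol in differentiated cells and 5 in undifferentiated cells, where 2 were also called under vehicle. They included sites at the promoters of the neighbouring genes Tomm40l, Ppox and Usp21. Apart from Adamts4, 16 protein-coding genes have a start within 100 kb of it. The site kept in differentiated cells was the Ppox promoter site with the DR3 match printed above, 29.1 kb downstream of the Adamts4 start, and RXR was called there in both states.

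Mmp2, the gelatinase made by mesenchymal cells, had 0 VDR sites in differentiated cells and 5 in undifferentiated cells with calcitriol. Its sites in introns of Mmp2 itself lay 20.2 kb and 23.1 kb downstream of the start, and the sites outside the gene at -79.0, 69.3 and 96.9 kb. At both positions inside Mmp2, RXR was called in every RXR list, in both states and with or without calcitriol, while RUNX2 was called there in undifferentiated cells only. VDR was thus called in 1 state at positions where RXR was called in both. None of the Mmp2 sites held a DR3 match.

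Adamts6, related to the fibrillin-associated Adamts10, had 2 VDR sites in differentiated and 4 in undifferentiated cells. The 4 lay between 54.3 and 75.1 kb downstream of its nearest start, in the intergenic stretch past the end of the gene, and Adamts6 had the nearest start for each. The 2 closest to the gene were kept in differentiated cells. At the 54.3 kb position VDR, RXR, C/EBPβ and RUNX2 were all called in differentiated cells with calcitriol, and VDR and C/EBPβ in undifferentiated cells. At the 65.4 kb position VDR, RXR and RUNX2 were called in both states. The whole site at 65.4 kb is shown because it kept VDR and RUNX2, with its RUNX match, which lies on the opposite strand, in capitals.
Adamts6, intergenic (chr13:105300872-105301072, plus strand): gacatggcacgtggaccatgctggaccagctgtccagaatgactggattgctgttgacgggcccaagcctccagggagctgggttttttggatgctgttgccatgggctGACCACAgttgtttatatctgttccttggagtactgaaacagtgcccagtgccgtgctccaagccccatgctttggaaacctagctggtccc

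Timp2, which inhibits Mmp2 and also helps Mmp14 to activate it, had 1 VDR site with calcitriol in differentiated cells and 3 in undifferentiated cells. The site at chr11:118226667-118226867, 9.7 kb upstream of Timp2, was called in 9 of the 12 factor lists, more than any other position near the 36 genes. VDR was called there with calcitriol in both states and under vehicle in undifferentiated cells, with RXR in all 4 of its lists and RUNX2 in both states. The other VDR sites near Timp2 were 7.6 kb upstream and 27.8 kb downstream in an intron. Neither was called for VDR in differentiated cells, although RXR was called at both positions in every RXR list.

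Adamts12, which cleaves cartilage oligomeric matrix protein (COMP), was the only gene of the group with a VDR site within 1 kb of its own start. That site, chr15:10994866-10995066, was centred 180 bp downstream of the start in undifferentiated cells with calcitriol, with RXR under calcitriol and vehicle, and it was not called in differentiated cells. A second VDR site in an intron, 53.5 kb from the start, carried the DR3 match printed above and was called in both states. In differentiated cells it coincided with RXR, C/EBPβ and RUNX2.

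Adamts13, the von Willebrand factor protease, had 1 VDR site in differentiated and 3 in undifferentiated cells, with 11 other protein-coding genes within 100 kb. The kept site was 37.8 kb upstream, in an intron of another gene. Mmp28 (epilysin) had its exact DR3 site in an intron 14.7 kb downstream of the start, called for VDR and RXR with calcitriol in both states and for neither under vehicle. Mmp9, the gelatinase of osteoclasts and inflammatory cells, had 0 VDR sites in differentiated and 3 in undifferentiated cells. Of these, 2 lay at the Zfp335 promoter and 1 lay 9.7 kb from the start of Pltp.

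The other members with VDR had it in undifferentiated cells alone. Mmp24, a membrane-type Mmp, had 0 sites in differentiated and 3 in undifferentiated cells, at the Eif6 promoter and in Uqcc. Adamts2, a procollagen N-proteinase, had 0 in differentiated and 2 in undifferentiated cells, in an intron 40.7 and 42.3 kb from the start. Adamts9, which cleaves versican, had 0 in differentiated and 2 in undifferentiated cells, of which 1 lay in an intron and the other 82.7 kb upstream. Mmp11, Mmp17, Adamts5, Adamts14, Adamts16, Adamts17 and Timp4 had 0 in differentiated and 1 each in undifferentiated cells. Among them, Mmp17's site lay at the Sfswap promoter, and Pparg had the start nearest to Timp4's site. The remaining 18 genes, among them Mmp14, Timp1 and Timp3, had no VDR site with calcitriol in either state.

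**Figure D3:**
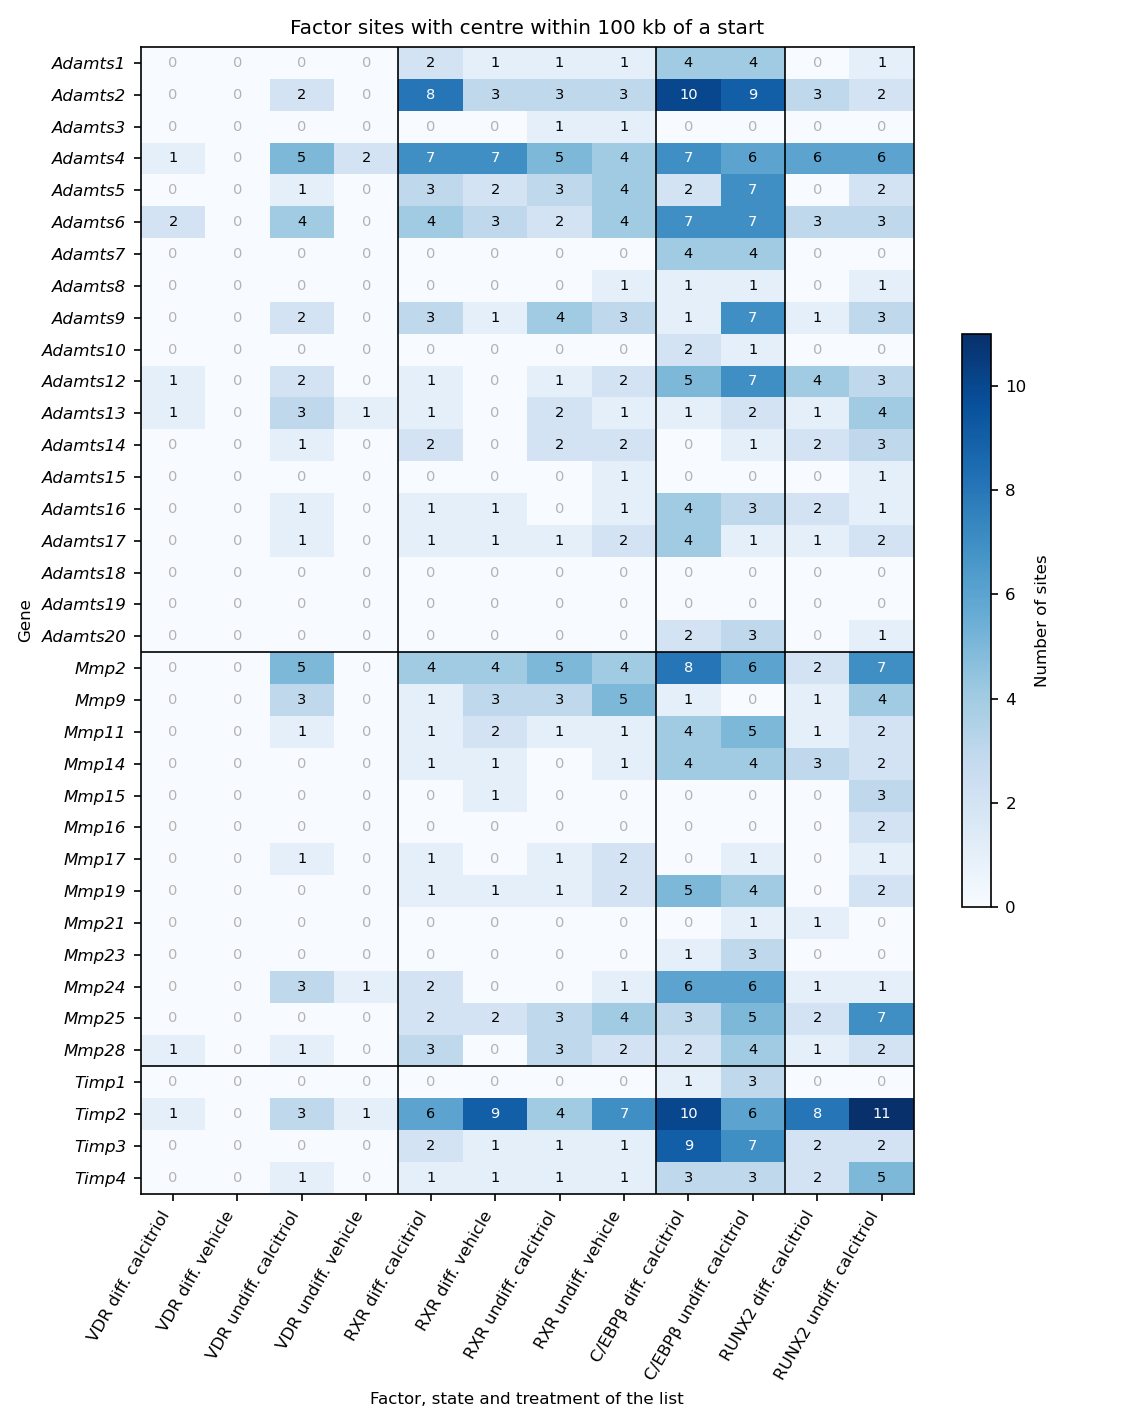
Number of sites with centre within 100 kb of a start for each of the 36 genes (rows) in each of the 12 factor lists (columns; darker is more). Timp2 reaches 11 RUNX2 sites in undifferentiated cells, Adamts2 and Timp2 reach 10 C/EBPβ sites in differentiated cells, and the rows of Adamts18 and Adamts19 hold 0 throughout.

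RXR was found near a higher share of these genes than of all genes in each of its lists. In differentiated cells, 23 genes (63.9%) had an RXR site with calcitriol, against 43.8% of all genes, and 18 (50.0%) under vehicle, against 33.6%. In undifferentiated cells, 21 genes (58.3%) had one with calcitriol, against 43.9%, and 26 (72.2%) under vehicle, against 44.3%. The summed RXR sites were 58 with calcitriol and 44 under vehicle in differentiated cells, and 48 with calcitriol and 61 under vehicle in undifferentiated cells. The order of the treatments was thus opposite in the states, while the whole lists held 8126 sites with calcitriol and 4815 under vehicle in differentiated cells, and 7591 with calcitriol and 7834 under vehicle in undifferentiated cells. Adamts2 had 8 RXR sites with calcitriol and 3 under vehicle in differentiated cells, and 3 in each undifferentiated list. Timp2 had 6 with calcitriol and 9 under vehicle in differentiated cells, and 4 with calcitriol and 7 under vehicle in undifferentiated cells. Counting each site for its nearest gene only, 14 genes had RXR in differentiated cells with calcitriol (38.9%, against 16.1% of all genes). When the distance was limited to 50 kb, 15 genes had it (41.7%, against 30.2%).

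C/EBPβ had the most sites near the group. It was found near 27 genes (75.0%) in differentiated cells, against 61.1% of all genes, and near 29 (80.6%) in undifferentiated cells, against 65.9%. The median was 2 sites per gene in differentiated and 3 in undifferentiated cells, against 1 over all genes in both states. Adamts2 had 10 sites in differentiated and 9 in undifferentiated cells, and Timp2 had 10 in differentiated and 6 in undifferentiated cells. Timp3, the matrix-bound inhibitor that also acts on Adamts4 and Adamts5, had 9 in differentiated and 7 in undifferentiated cells. Adamts9 had 1 site in differentiated and 7 in undifferentiated cells, and Adamts5, another aggrecan-cleaving protease, had 2 in differentiated and 7 in undifferentiated cells. Of the 109 distinct sites in differentiated cells, 78 overlapped C/EBPβ sites of undifferentiated cells (71.6%), against 70.1% of the whole list. The C/EBP motif (TTACNNAA or TTGCNNAA, both strands) was present in 52.3% of them, against 56.4% of the list.

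RUNX2 was found near fewer of these genes in differentiated than in undifferentiated cells. They were 20 genes in differentiated cells (55.6%), against 46.5% of all genes, and 28 genes in undifferentiated cells (77.8%), against 59.6%. The sites summed to 47 in differentiated and 84 in undifferentiated cells, and 20 genes had fewer in differentiated cells (55.6%, against 42.1% of all genes), 5 had more (13.9%, against 8.73%) and 4 had equal numbers above 0 (11.1%, against 12.1%). Timp2 had 8 sites in differentiated and 11 in undifferentiated cells, and Adamts4 had 6 in each. Mmp2 had 2 in differentiated and 7 in undifferentiated cells, and so did Mmp25, a membrane-anchored Mmp of leukocytes. The genes with more RUNX2 sites in differentiated cells were Adamts2, Adamts12, Adamts16, Mmp14 and Mmp21 (matching numbers of sites were 3, 4, 2, 3 and 1 in differentiated cells, against 2, 3, 1, 2 and 0 in undifferentiated cells). The whole RUNX2 list was shorter in differentiated cells as well, with 7919 sites against 12012. The RUNX motif (TGNGGTN with T or C at each N, both strands) was present at 26 of the 47 sites in differentiated cells (55.3%), against 55.9% of that list, and at 37 of 82 distinct sites in undifferentiated cells (45.1%), against 52.4%.

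Sites within 1 kb of a start were few, here as over all genes. For RXR they were found at 2 members in differentiated cells with calcitriol (5.56%, against 6.62% of all genes) and 1 under vehicle (2.78%, against 4.54%), and in undifferentiated cells at 1 with calcitriol (2.78%, against 6.75%) and 3 under vehicle (8.33%, against 7.33%). Besides Adamts12, described above, RXR was called at the start of Adamts1 in differentiated cells with calcitriol, at the start of Adamts4 in differentiated cells with calcitriol and under vehicle and in undifferentiated cells under vehicle, and at that of Adamts6 in undifferentiated cells under vehicle. C/EBPβ was found at 4 members in differentiated cells (11.1%, against 8.27%) and 5 in undifferentiated cells (13.9%, against 10.9%), and RUNX2 at 1 in differentiated cells (2.78%, against 6.16%) and 4 in undifferentiated cells (11.1%, against 13.0%). C/EBPβ was called at the starts of Adamts5, Adamts6, Mmp11 and Mmp19, a soluble basement membrane protease, in both states, and of Adamts9 in undifferentiated cells only. RUNX2 was called at Adamts4 starts in both states, and at those of Adamts1, Mmp16 and Timp2 in undifferentiated cells only. The RUNX2 site at Timp2 was centred 18 bp from the start.

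Factor sites near the group fell on 247 distinct positions, of which 88 were called in 1 list. All 4 factors were called with calcitriol at 2 positions in differentiated cells, those at Adamts6 and Adamts12 described above, and at 6 positions in undifferentiated cells, near Adamts4, Adamts9, Adamts14, Adamts17, Mmp2 and Timp2. Neighbouring members share sites: 5 positions counted for both Adamts1 and Adamts5, which are adjacent on chromosome 16, and 1 for both Adamts8 and Adamts15 on chromosome 9. The 36 genes are longer than most, with a median of 32.9 kb against 15.5 kb over all genes, and have a median of 2 other genes within 100 kb, against 3. The searched stretch averaged 231.3 kb per gene in the group and 217.5 kb over all genes. The part of these differences in the shares above was not tested.

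H3K9ac and H3K4me1 lay over the starts of somewhat more of these genes in differentiated cells. So did H4K5ac and H3K4me3 in the main count, but their order between the states depended on the setting. H4K5ac covered a start of 22 genes in differentiated cells (61.1%), against 53.4% of all genes, and of 21 in undifferentiated cells (58.3%), against 53.6%. H3K9ac covered a start of 22 in differentiated cells (61.1%), against 51.5%, and of 20 in undifferentiated cells (55.6%), against 49.7%. H3K4me1 covered a start of 26 in differentiated cells (72.2%), against 55.6%, and of 21 in undifferentiated cells (58.3%), against 52.9%. H3K4me3 covered a start of 16 in differentiated cells (44.4%), against 42.4%, and of 13 in undifferentiated cells (36.1%), against 35.1%. Of the 10 mark lists, H3K4me1 in differentiated cells showed the widest gap between the members and all genes. At the outermost start alone, H3K4me3 covered 12 genes in each state (33.3%). Among all genes these shares were 39.5% in differentiated and 33.2% in undifferentiated cells. Without the lowest 25% of scores it covered 11 in differentiated cells (30.6%, against 33.6%) and 12 in undifferentiated cells (33.3%, against 27.1%). H4K5ac then covered 18 of the 36 genes in differentiated cells and 19 in undifferentiated cells, where 49.7% and 51.6% of all genes were covered.

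**Figure D4:**
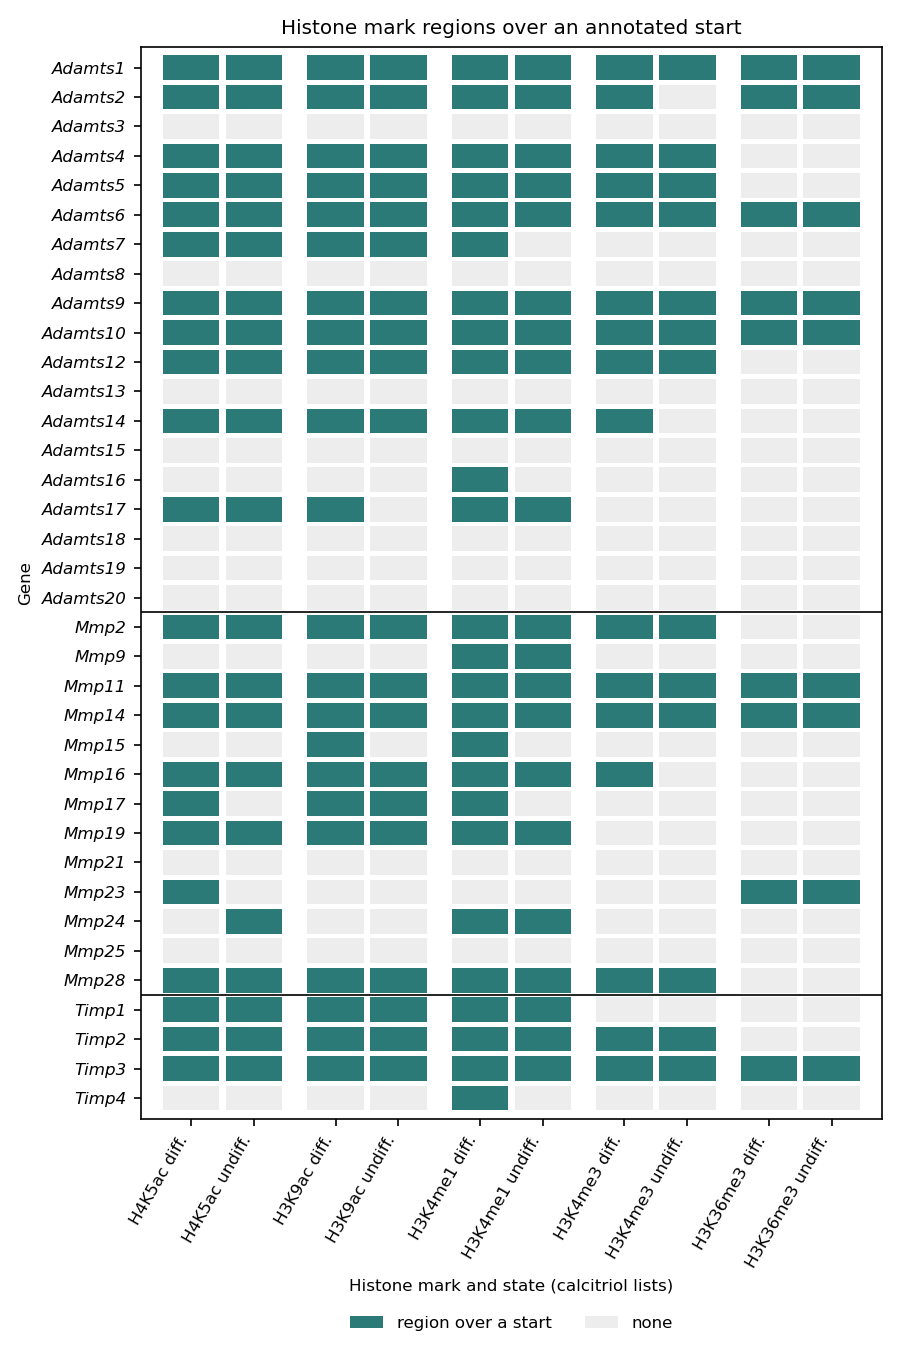
Histone mark regions over any annotated start of the 36 genes (rows) in differentiated and undifferentiated cells with calcitriol (columns; filled means that a region covers a start). H4K5ac, H3K9ac and H3K4me1 lie together over most marked starts in both states, and Adamts3, Adamts8, Adamts13, Adamts15, Adamts18, Adamts19, Adamts20, Mmp21 and Mmp25 hold no filled cell.

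Over any annotated start and with all regions kept, changes between the states were almost all towards a mark in differentiated cells only. H3K4me3 covered a start of Adamts2, Adamts14 and Mmp16 in differentiated cells only (8.33% of the group, against 8.67% of all genes) and of no member in undifferentiated cells only (1.33% of all genes). Adamts2 and Adamts14 are procollagen N-proteinases, which trim the amino-terminal propeptide from fibrillar procollagens, and Mmp16 is a membrane-type Mmp. The third procollagen N-proteinase, Adamts3, carried no mark in either state. H3K9ac covered a start of Adamts17, a fibrillin-associated protease, and of the membrane-type Mmp15 in differentiated cells only (5.56%, against 2.09%) and of no member in undifferentiated cells only (0.270% of all genes). H3K4me1 covered a start of Adamts7, Adamts16, Mmp15, Mmp17 and Timp4 in differentiated cells only (13.9%, against 4.32%) and of none in undifferentiated cells only (1.62% of all genes). H4K5ac covered a start of Mmp17 and Mmp23 in differentiated cells only (5.56%, against 1.61%) and of Mmp24 in undifferentiated cells only (2.78%, against 1.79%). Mmp15 and Mmp17, which is anchored to the membrane by a lipid, thus each carried a further pair of marks in differentiated cells.

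H3K36me3 covered a start of 9 genes in each state (25.0%), against 25.8% of all genes in differentiated and 28.0% in undifferentiated cells. They were the same genes: Adamts1, Adamts2, Adamts6, Adamts9, Adamts10, Mmp11, Mmp14, Mmp23 and Timp3. No member had it over a start in 1 state only, against 0.874% of all genes in differentiated cells only and 3.09% in undifferentiated cells only. This count rests on annotated starts inside the genes. At the outermost start alone it was 1 in differentiated cells (2.78%, against 5.81% of all genes) and 2 in undifferentiated cells (5.56%, against 8.67%). The share of all genes was thus lower there as well. H3K36me3 covered at least 50% of the gene body of 15 members in each state (41.7%), against 39.3% of all genes in differentiated and 41.4% in undifferentiated cells. It covered 97.6% of Timp2 in differentiated and 98.0% in undifferentiated cells, 100% of Mmp14 in both, and 0% of Adamts17, Mmp9 and Timp1 in both. Timp1 inhibits Mmp9 among others. H4K5ac covered at least 50% of the gene body of 11 members in each state (30.6%), against 14.3% of all genes in differentiated and 15.4% in undifferentiated cells.

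H3K4me3 regions over starts of the same genes were narrower in differentiated cells. At all 13 genes marked in both states the region was narrower in differentiated cells, with a median ratio of 0.323 and a range of 0.0466 to 0.797, and so it was at 98.3% of all genes marked in both, with a median ratio of 0.481. At Timp2 the region was 2.94 kb wide in differentiated and 40.2 kb in undifferentiated cells. At Timp3 it was 2.83 kb in differentiated and 31.4 kb in undifferentiated cells, and at Mmp28 it was 1.56 kb in differentiated and 33.5 kb in undifferentiated cells. At Adamts9 it was 2.80 kb in differentiated and 3.51 kb in undifferentiated cells. The direction is that of the whole lists, and the median width of the members was 2.34 kb in differentiated cells, against 2.33 kb over all genes, and 11.3 kb in undifferentiated cells, against 5.48 kb. H3K9ac regions had a median ratio of 1.22 over 20 genes, against 1.05 over all genes marked in both. They were narrower in differentiated cells at 2 of the 20, against 33.9% of all genes marked in both. The region at Adamts4 was 25.6 kb wide in differentiated and 9.83 kb in undifferentiated cells. At Mmp14, the collagenolytic activator of Mmp2, it was 24.8 kb in differentiated and 10.3 kb in undifferentiated cells. A region's width depends on the settings of the authors' peak caller, for which no value was found in the labels.

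**Figure D5:**
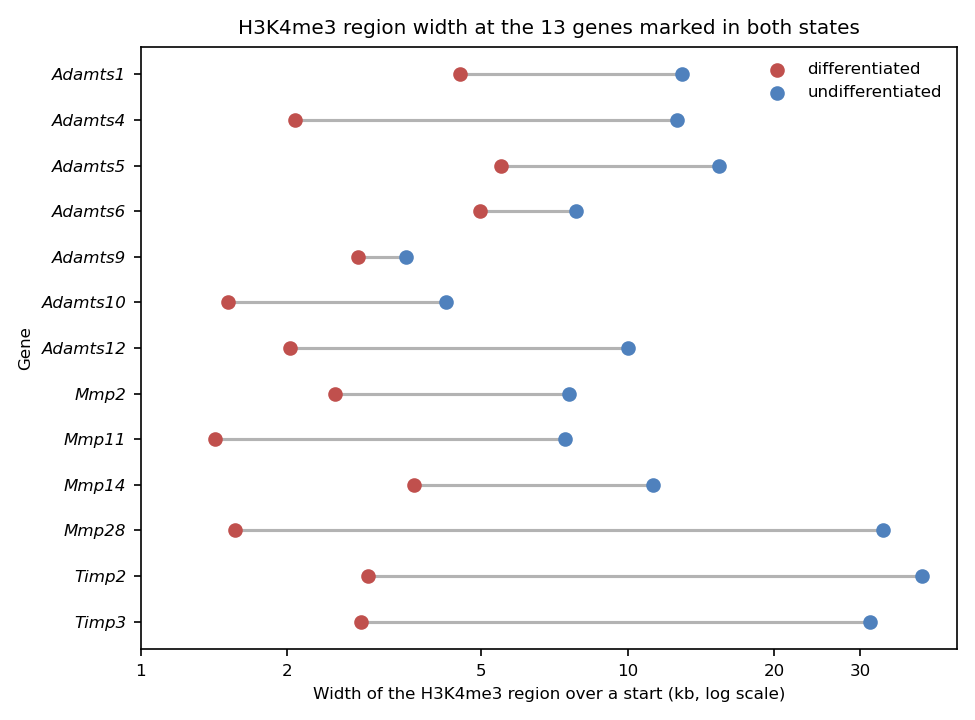
Width of the H3K4me3 region over a start (x axis, kb on a log scale; the widest where several starts are covered) for the 13 genes marked in both states, in differentiated (red) and undifferentiated cells (blue) with calcitriol. Each red point lies left of its blue point, from Adamts9 (2.80 kb differentiated, 3.51 kb undifferentiated) to Mmp28 (1.56 kb differentiated, 33.5 kb undifferentiated).

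Bare starts and few sites marked the other end of the group. Adamts3, Adamts8, Adamts13, Adamts15, Adamts18, Adamts19, Adamts20, Mmp21 and Mmp25 had none of the 5 marks over a start in either state. The share of all genes without any of the 5 was not counted. Mark by mark, H4K5ac was absent in both states from 36.1% of the group (44.8% of all genes) and H3K9ac from 38.9% (48.2%). H3K4me1 was absent from 27.8% (42.8%), H3K4me3 from 55.6% (56.2%) and H3K36me3 from 75.0% (71.1%). Adamts18 and Adamts19 had no factor site in any of the 12 lists, and the share of all such genes was not counted. Adamts3 had 2, both RXR in undifferentiated cells. Adamts15 and Adamts8, which are neighbours and cut aggrecan or versican, had 2 and 4. Those of Adamts15 were for RXR under vehicle and for RUNX2 in undifferentiated cells. Mmp21, needed for left-right patterning of the embryo, had 2, and Mmp16 had 2, both RUNX2 in undifferentiated cells. Mmp25 had 28 factor sites and Adamts13 had 17 despite bearing no mark, with 13 and 11 other protein-coding genes within 100 kb. Adamts7, which like Adamts12 cleaves COMP, Adamts10, Mmp23 and Timp1 had C/EBPβ sites and no other, and Adamts20, a versican-cleaving protease, had 1 RUNX2 site besides.

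Among genes with H4K5ac over a start, a division chosen after the values were seen, the members stood above all such genes in 7 of the 8 calcitriol factor lists and below them for RUNX2 in differentiated cells. VDR lay near 5 of 22 such members with calcitriol in differentiated cells (22.7%), against 17.2% of such genes, and near 13 of 21 in undifferentiated cells (61.9%), against 55.7%. RXR lay near 17 of 22 in differentiated cells (77.3%), against 60.6%, and near 15 of 21 in undifferentiated cells (71.4%), against 60.0%. C/EBPβ lay near 19 of 22 in differentiated cells (86.4%), against 80.1%, and near 20 of 21 in undifferentiated cells (95.2%), against 84.2%. RUNX2 lay near 13 of 22 in differentiated cells (59.1%), against 63.4%, and near 18 of 21 in undifferentiated cells (85.7%), against 78.6%. Among genes without H4K5ac over a start, the members stood above all such genes for each factor in both states. RUNX2 lay near 7 of 14 members in differentiated cells (50.0%), against 27.2%, and near 10 of 15 in undifferentiated cells (66.7%), against 37.7%. For RXR they were 6 of 14 (42.9%, against 24.5%) in differentiated and 6 of 15 (40.0%, against 25.2%) in undifferentiated cells. For C/EBPβ they were 8 of 14 (57.1%, against 39.5%) and 9 of 15 (60.0%, against 44.7%), in the same order of states. For VDR they were 1 of 14 (7.14%, against 6.35%) and 5 of 15 (33.3%, against 23.8%). The VDR order in differentiated cells thus rested on 1 gene.

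A list of 35 further genes of matrix proteolysis, which activate, inhibit, bind or are cut by these proteases, had sites of each factor near a higher share than all genes did in each of the 12 factor lists. VDR with calcitriol lay near 8 of them in differentiated cells (22.9%), against 12.1% of all genes, and near 22 in undifferentiated cells (62.9%), against 40.9%. Under vehicle VDR lay near 3 in differentiated cells (8.57%), against 6.15%, and near 8 in undifferentiated cells (22.9%), against 15.7%. Within the same 100 kb the Adamts, Mmp and Timp genes stood below all genes in both vehicle lists, but not within 50 kb in undifferentiated cells. The 4 with the most VDR sites with calcitriol in undifferentiated cells were Dcn (decorin), Fmod (fibromodulin), Adamtsl3 and Thsd4. Dcn had 0 in differentiated and 10 in undifferentiated cells, and Fmod had 1 in differentiated and 10 in undifferentiated cells. Adamtsl3 had 0 in differentiated and 9 in undifferentiated cells, and Thsd4 had 0 in differentiated and 6 in undifferentiated cells. The stretch searched was 476084 bp for Adamtsl3 and 564554 bp for Thsd4, against 202757 bp for Dcn and 200243 bp for Fmod. The part of this difference in the counts was not tested. RUNX2 lay near 27 in differentiated cells (77.1%), against 46.5% of all genes, and near 29 in undifferentiated cells (82.9%), against 59.6%.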

How the data were processed

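ChIP-seq was performed in differentiated and undifferentiated MC3T3-E1 cells, and 22 lists of regions were analysed, 1 per antibody, state and treatment. The authors used Bowtie, HOMER and build mm9, per the submitters' processing notes, with settings not given in the sources used here. The region names count merged peaks, and each list was taken to hold regions shared by the authors' replicates, so cultures could not be compared with each other. The deposited files have 6 columns; the score deposited by the authors is 0 in the factor lists, whose sites all have the same width, and of unstated meaning in the mark lists, where 1 alternative dropped the lowest 25%. The labels name H4K5ac and the protocol names H3K5Ac; the sample labels were followed.

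Regions on chromosomes 1 to 19 and X were placed on the mm9 sequence with the GENCODE vM1 annotation, with entries of 1 symbol joined. A site could count for several genes, and overlap meant at least 1 bp. Promoters were within 1 kb of a start. DR3 matches allowed 1 mismatch, and RUNX and C/EBP matches none; the motifs were searched separately on both strands of 200 bp around a site's centre and may overlap. Shares of sites carry exact Clopper-Pearson 95% intervals, which cover counting error only. Counting scripts were tested on simulated data. Tools were numpy 2.4.6, pandas 2.3.3, scipy 1.17.1, pysam 0.24.0 and matplotlib 3.10.9. With 1 list per group no test was made, and shares of the members are set beside those of all genes or of the whole list.

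The members, the proteolysis list and the markers were chosen with earlier results of these data known. All 36 genes are named. Described site by site are the 10 with the most VDR sites in undifferentiated cells, those with VDR in differentiated cells, those with H3K4me3 or H3K9ac over a start in 1 state only, those with VDR within 1 kb of a start, and the 5 with the fewest factor sites, ties included. Alternatives changed the distance, the starts used, the assignment of sites to genes, the regions kept, the overlap and the motif search.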

Additional observations from a re-analysis of the deposited data

Results flagged for a closer look

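RXR sites went in opposite directions with calcitriol in the states near 5 genes: more than under vehicle in differentiated cells and fewer than under vehicle in undifferentiated cells. The differences, calcitriol minus vehicle, were 1 in differentiated and -1 in undifferentiated cells at Adamts5, Adamts12 and Mmp17, 1 in differentiated and -2 in undifferentiated cells at Adamts6, and 2 in differentiated and -1 in undifferentiated cells at Mmp24. Each group had 1 list, so the difference between states was not tested. Over the whole lists, RXR had more sites with calcitriol in differentiated cells and fewer in undifferentiated cells. The share of all genes with this opposite pattern was not counted. Taken singly, 33.3% of the group had more RXR sites with calcitriol in differentiated cells, against 26.9% of all genes. In undifferentiated cells 38.9% of the group had fewer with calcitriol, against 17.7% of all genes.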

How the results depend on the processing

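Of 77 recomputed counts, 61 stayed within 1.5 times the reported one. Keeping only regions merged from 2 or more peaks dropped no region from any list, so the 22 counts under that setting could not move and are left out of this tally. Counts within 1.5 times could still change the order of the states. Without the lowest 25% of scores, H4K5ac and H3K4me3 each covered a start of fewer members in differentiated than in undifferentiated cells. Counting each site only for its nearest gene gave fewer sites per gene, which follows from this rule. VDR with calcitriol was left near 3 genes in differentiated cells (8.33%, against 3.06% of all genes) and 9 in undifferentiated cells (25.0%, against 14.7%). Under vehicle VDR was left near 1 in undifferentiated cells (2.78%, against 3.46%). RXR was left near 14 in differentiated cells with calcitriol (38.9%, against 16.1%) and 10 under vehicle (27.8%, against 11.4%). In undifferentiated cells RXR was left near 12 with calcitriol (33.3%, against 15.9%) and 16 under vehicle (44.4%, against 16.4%). C/EBPβ was left near 18 in undifferentiated cells (50.0%, against 29.8%) and RUNX2 near 12 in differentiated cells (33.3%, against 17.5%). A distance of 50 kb left 15 genes with RXR in differentiated cells with calcitriol (41.7%, against 30.2% of all genes). At the outermost start alone, H3K36me3 covered 1 gene in differentiated cells (2.78%, against 5.81% of all genes) and 2 in undifferentiated cells (5.56%, against 8.67%). Exact DR3 matches numbered 1 in differentiated and 1 in undifferentiated cells, and a 100 bp search found 4 in undifferentiated cells. Asking for an overlap over most of a site left 1 VDR site with C/EBPβ in differentiated cells. For RXR within 50 kb and the DR3 and overlap settings the cause was not tested. No paired analysis was possible because each group had 1 list and the labels carry no replicate numbers. Without read counts, a site absent from a list was not detectable at an unknown depth and is not shown to be unbound.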
